A study of Mus musculus with 9 samples.

Results

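Osteoclasts (OCs) formed by 3 days of RANKL were compared with the myeloid precursors (MPs) they came from, gene by gene, on 6 of the 9 mouse exon arrays of the series. The cells came from bone marrow of strain C57Black6 mice, which the labels give no genetic change, and were first expanded for 3 days in medium with CSF-1, at 100 ng/ml in the labels and at a lower dose in the study's methods. The control group of 3 arrays held MPs left in CSF-1 without RANKL, and the other 3 held MPs given CSF-1 together with RANKL for 3 days. The remaining 3 arrays held MPs after 1.5 days of CSF-1 and RANKL, and they entered the fit only through the shared estimate of the spread. All genes with a single symbol were compared, each through its brightest transcript cluster (the set of exon probes of 1 gene), which gave 14860 genes from 23332 transcript clusters. The culture time of the CSF-1 alone cells is not in the labels, so the effect of RANKL and that of culture time cannot be told apart. No label ties an array to a mouse or a culture, so the p-values reflect variation among arrays, which may be technical in part.

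OCs are large cells with several nuclei that dissolve bone mineral with acid and digest the matrix with secreted proteases. They form when RANKL binds its receptor RANK on cells of the macrophage lineage, which recruits TRAF adaptor proteins and switches on NF-kB, AP-1 and NFATc1, the transcription factors (TFs) of the OC program. CSF-1 keeps precursors and OCs alive. NF-kB has a fast branch held back by IkB inhibitors and a slow branch in which the p100 protein, made from Nfkb2, is cut to p52. Cells bound for the OC fate leave the cell cycle, fuse, and build an actin ring under which the acid is released.

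Both groups carried the defining transcripts of the macrophage lineage. None of the 7 measured macrophage markers was called, and Csf1r, the CSF-1 receptor, lay between 11.60 and 11.86 in the CSF-1 alone arrays and between 11.66 and 11.85 in the RANKL arrays, as log2 signal. Of the 9 OC markers, 8 had all RANKL arrays above all CSF-1 alone arrays, the exception being the integrin Itgb3. Over all genes the share with such separate groups on the high side was 6.59%. Only 1 of the 9, Mmp9, was called. Lists of granulocyte, lymphoid, erythroid, stromal and dendritic cell markers held no called gene. Their mean log2 signals lay below the mean of all genes (5.61 to 5.71) on each array. They ran from 3.66 to 3.72 in MPs and from 3.44 to 3.54 in OCs for the 23 granulocyte and mast cell genes, and from 3.80 to 3.89 against 3.77 to 3.87 for the 22 stromal, osteoblast and endothelial genes. For lymphoid genes they ran from 3.85 to 3.89 against 3.72 to 3.87, for erythroid and megakaryocyte genes from 4.62 to 4.70 against 4.43 to 4.60, and for dendritic cell genes from 4.21 to 4.33 against 4.08 to 4.45. In bulk RNA, fewer cells of a type and less RNA per cell cannot be told apart.

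**Figure D1:**
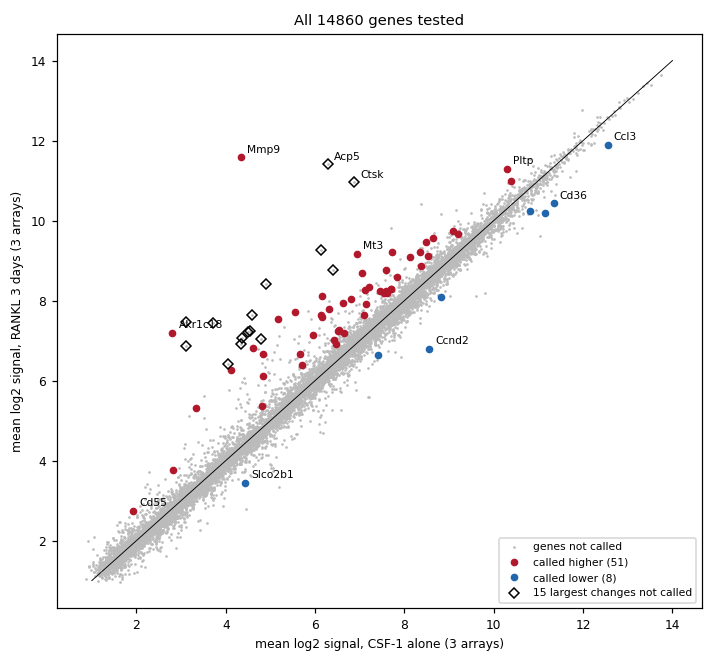
Mean log2 signal of each of the 14860 genes over the 3 CSF-1 alone arrays (x axis) and the 3 RANKL 3 days arrays (y axis), with the 51 genes called higher in red, the 8 called lower in blue and the 15 largest uncalled changes as open diamonds. Mmp9 stands farthest above the line of equal signal, and the uncalled diamonds include Acp5 and Ctsk.

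Among all genes, 59 were called (limma, adjusted p under 0.05), 51 higher in OCs and 8 lower, which is 0.397% of the 14860 tested (0.343% higher and 0.0538% lower). For each of the 59 the groups did not overlap and were at least 0.30 log2 units apart, where 11.5% of all genes had groups that did not overlap. The median log2 change over all genes was -0.01. A log2 change of 1 or more was seen in 107 genes (0.72%), of which 23 were called, and a change of -1 or less in 32 (0.215%), of which 2 were called. With the replicate number as a block, 97 genes were called (0.653%), 85 higher (0.572%) and 12 lower (0.0808%). Of the 59, 45 were among them and 14 were not: Vegfc, Col4a5, Casp4, Samd9l, 1110008P14Rik, Btg1, Icam1, Card14, Surf6, Nt5dc2, Ccl3, S1pr1, Slco2b1 and Ccnd2. A term for replicate 1 against replicates 2 and 3, used instead of the block, called 215 genes and kept all 59. Replicates 2 and 3 alone kept 49 of the 59. The count depended on single arrays. Without replicate 1, 2 or 3 of RANKL 3 days it was 102, 16 and 4, of CSF-1 alone 31, 4 and 5, and of RANKL 1.5 days 101, 4 and 14. RANKL 3 days replicate 1 had the lowest weight of the 9 arrays when weights were fitted (0.249). Nfkb2, Rrad, Zmiz2 and Cd55 were the 4 genes called without any 1 of the 9 arrays, and the other 55 lost the call at least once.

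**Figure D2:**
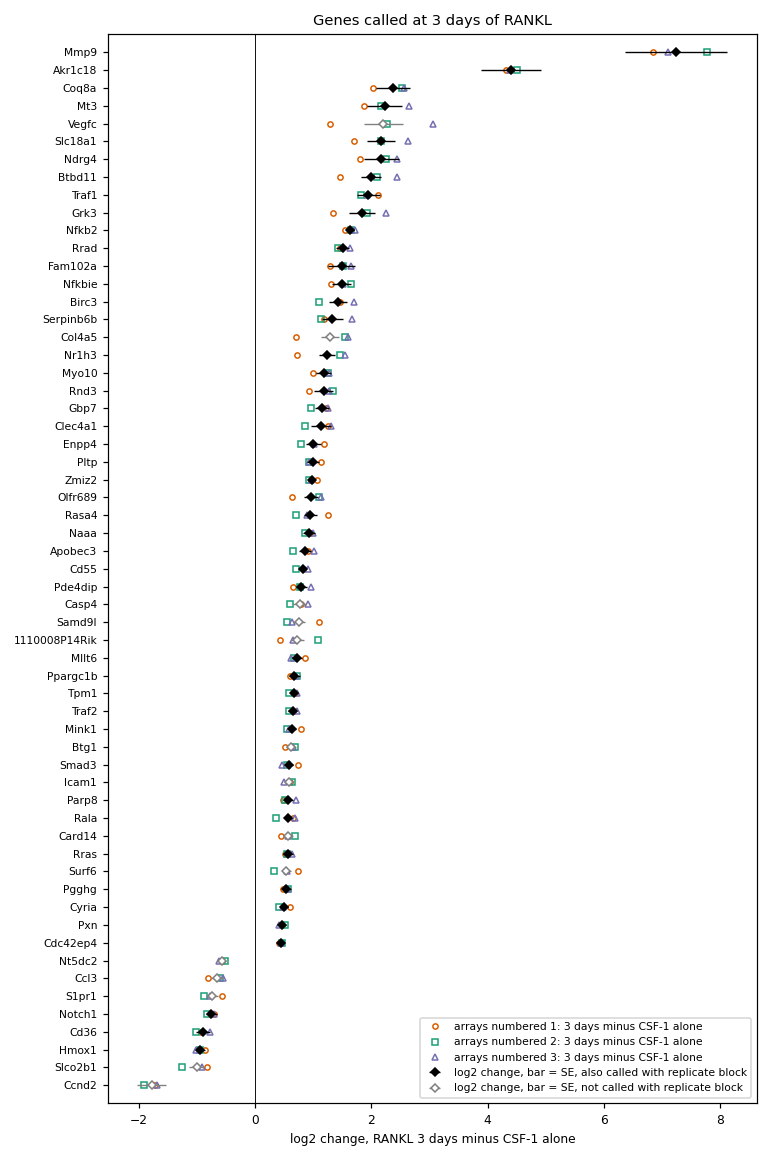
Log2 change of each of the 59 called genes, RANKL 3 days minus CSF-1 alone (x axis), with its SE as a bar and the difference between the 2 arrays of each replicate number as coloured points. Grey diamonds mark the 14 genes not called with the replicate block, and in each of the 59 genes the 3 coloured points lie on the same side of 0.

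Genes of the RANK and NF-kB cascade made up 8 of the 51 rises, with log2 changes between 0.57 and 1.95. The 8 were grouped by known role after the calls were seen, as were the groups of called genes that follow. Genes with these roles were not counted among all genes tested, so the sizes of the groups are only a description. Nfkb2, which encodes p100, had the smallest adjusted p of all genes. Its log2 signal was 7.01, 7.06 and 7.06 in the CSF-1 alone arrays and 8.55, 8.72 and 8.78 in the RANKL arrays. The arrays of each group lay close together and far from the other group, with a change of 1.64 (SE 0.07, adjusted p = 0.000273). Nfkbie encodes the inhibitor IkB epsilon and rose by 1.49 (SE 0.17, adjusted p = 0.0209), from 6.12, 6.29 and 6.49 to 7.43, 7.95 and 8.0. The inhibitor gene Nfkbia, IkB alpha, was called only with the block (change 1.04, adjusted p = 0.173 without the block and 0.0288 with it). The same held for Bcl3, a nuclear partner of p52 (0.59, adjusted p = 0.092 and 0.0414). Of the 13 measured subunits, inhibitors and kinases, 2 rose and 11 did not pass, where 0.343% of all genes were called higher. The median change was 0.18 beside -0.01 for all genes, and 0.05 beside 0.01 with replicates 2 and 3 alone. The measured kinases and the subunits Rela and Rel were among those that did not pass, at 0.18 for Rela and 0.15 for Rel. The subunits Nfkb1 and Relb and the kinase Chuk were not among the genes measured.

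Both genes of this list that rose have promoters in the RefSeq set, and their sequences are shown because the genes carry the cascade's own subunit and inhibitor. The windows run from 250 bases before to 50 after a transcription start on GRCm38.p6, both on the plus strand, and capitals mark matches to the kB consensus, the sequence bound by NF-kB.
Nfkb2, chr19:46304487-46304786: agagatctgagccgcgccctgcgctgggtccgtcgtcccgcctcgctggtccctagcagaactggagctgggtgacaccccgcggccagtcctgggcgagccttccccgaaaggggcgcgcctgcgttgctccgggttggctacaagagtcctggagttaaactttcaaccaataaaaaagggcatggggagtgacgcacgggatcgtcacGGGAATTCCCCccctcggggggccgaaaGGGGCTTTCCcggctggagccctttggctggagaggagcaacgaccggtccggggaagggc
Nfkbie, chr17:45555450-45555749: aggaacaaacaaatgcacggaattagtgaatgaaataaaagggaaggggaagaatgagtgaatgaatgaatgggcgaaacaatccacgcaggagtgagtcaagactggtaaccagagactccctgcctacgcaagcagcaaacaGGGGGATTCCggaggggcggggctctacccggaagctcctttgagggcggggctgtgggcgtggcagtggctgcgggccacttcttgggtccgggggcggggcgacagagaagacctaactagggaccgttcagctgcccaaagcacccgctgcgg
The Nfkb2 window held 3 matches, the first and second of which overlap, and the Nfkbie window held 1. Nfkb2 has 3 listed windows, each with a match, and the one with the most matches is shown. Both strands were searched. Over all tested genes with a listed promoter (11869), 11.4% had a match, and among the 42 such genes called higher 6 did (14.3%): Nfkb2, Nfkbie, Rras, Casp4, Apobec3 and Enpp4. The 5 listed genes called lower had none. The AP-1 motif TGANTCA was found in 4 of the 42 (9.52%) against 8.06% of all, the E-boxes CACGTG and CATGTG in 3 (7.14%) against 20.9%, and the PU.1 core AGGAAGT in 4 (9.52%) against 9.89%. The PU.1 core took the place of a longer one after the counts of the longer core, which matched none of the genes called higher, had been seen. Shares in so few genes are a description, and a match is not a shown binding site.

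Traf1, an adaptor of TNF family receptors that is itself induced by NF-kB, had log2 signals of 5.78, 6.40 and 6.31 in MPs and 7.89, 8.22 and 8.23 in OCs. This was a rise of 1.95 (SE 0.20, adjusted p = 0.0202), and the lowest OC array stood 1.49 above the highest MP array. Birc3, the ubiquitin ligase cIAP2 that works with TRAFs, rose by 1.43 (adjusted p = 0.0202), and Traf2, a RANK-binding adaptor, by 0.65 (adjusted p = 0.029). The other measured receptor and adaptor genes did not pass. Tnfrsf11a, which encodes RANK, had a change of 0.35 and Traf6, the main RANK adaptor, a change of -0.12. The 16 measured members of that list had a median of 0.09, and its members Traf3 and Birc2 were not measured. Fam102a encodes EEIG1, a protein known to act with RANK in precursors, and rose by 1.49 (adjusted p = 0.0478). The adhesion molecule Icam1, a classical NF-kB target, rose by 0.58 (adjusted p = 0.0409), and the scaffold Card14, which can activate NF-kB, by 0.57 (adjusted p = 0.0487). Neither was called with the block (adjusted p = 0.0708 and 0.0601). Of 28 measured NF-kB target genes of immune cells, 5 rose (0.343% of all genes were called higher), none fell and 23 did not pass. The median was 0.21, and 4 of the 5 are the signalling genes Nfkb2, Nfkbie, Traf1 and Birc3 themselves.

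The largest rise of any called gene was in Mmp9, the gelatinase that OCs secrete. It read 4.10, 4.09 and 4.84 in the CSF-1 alone arrays and 10.95, 11.86 and 11.94 in the RANKL arrays, a change of 7.24 (SE 0.88, adjusted p = 0.0237). No pair of arrays came within 6.11 log2 units across the groups, yet the adjusted p was 0.122 without RANKL 3 days replicate 3. Acp5, the tartrate-resistant acid phosphatase used to stain OCs, was next in size and read 6.28, 6.37 and 6.19 against 10.82, 11.75 and 11.66. Its change of 5.13 (SE 0.84) had an adjusted p of 0.0599, and 0.0459 with the replicate block. The collagen-cutting protease Ctsk read 7.05, 6.89 and 6.70 against 10.27, 11.19 and 11.40. Its change of 4.07 missed the threshold in both fits (adjusted p = 0.0638 and 0.0502). Mmp14, a membrane-bound collagenase, changed by 3.07 (adjusted p = 0.154). Of the 29 measured matrix-degrading enzymes and inhibitors, 1 rose and 28 did not pass, and the list median was -0.05. Mmp13 (-1.48), the urokinase Plau (-1.41) and Mmp12 (-0.83) lay lower in every RANKL array without passing. Among genes of the matrix and proteases, Serpinb6b, a protease inhibitor, rose by 1.33, the collagen IV chain Col4a5 by 1.29 and Pgghg, which trims sugars from collagen hydroxylysine, by 0.54.

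Genes of acid secretion were led by Car2, the carbonic anhydrase that makes the protons. It read 3.01, 3.40 and 2.90 against 6.81, 7.78 and 7.82. That change of 4.37 (SE 0.75) had an adjusted p of 0.072, and 0.0445 with the block. The sodium/proton exchanger Slc9b2 changed by 2.36 (adjusted p = 0.103) and the proton pump subunit Atp6v0d2 by 2.11 (adjusted p = 0.189). Atp6v0d2 was high on 1 MP array, at 9.13 on CSF-1 alone replicate 1 against 6.98 and 6.98, and read 10.10, 9.69 and 9.64 in OCs. None of the 27 measured genes of acid secretion was called, the median was 0.05, and 9 had separate groups on the high side and 2 on the low side, where 6.59% and 4.91% of all genes did. The chloride channel Clcn7 (0.34) and the pump subunit Tcirg1 (0.31) were among the 9, with small changes.

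Of the receptors and fusion proteins that mark OCs, none was called in the limma fit, and several were with the block. Oscar, an immune receptor that costimulates OC formation, read 3.46, 3.87 and 3.82 in MPs and 6.39, 7.85 and 8.05 in OCs, a change of 3.71 (adjusted p = 0.0558, and 0.0178 with the block). Dcstamp, needed for cell fusion, read 5.06, 5.00 and 4.65 against 7.41, 8.89 and 8.94, a change of 3.51 (adjusted p = 0.0692, and 0.044 with the block). In both genes RANKL 3 days replicate 1 was the lowest OC array by over 1 log2 unit. Ocstamp, the second fusion protein, changed by 2.03 (adjusted p = 0.218, and 0.0321 with the block). The calcitonin receptor Calcr changed by 1.23 and the surface glycoprotein Cd200 by 1.28, and neither passed in either fit. Over the 21 measured surface and late markers the median change was 1.28, and 14 had every OC array above every MP array (6.59% of all genes did) and 1 had every one below (4.91%). The limma fit called 1 of the 21, Mmp9, and the block 6. Of 27 fusion and tetraspanin genes none was called, and 3 were with the block (Dcstamp, Ocstamp and Dock5, at 1.06). Their median was 0.01, with 14 higher and 13 lower in the mean, and 7 had separate groups on the high side and 3 on the low side.

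**Figure D3:**
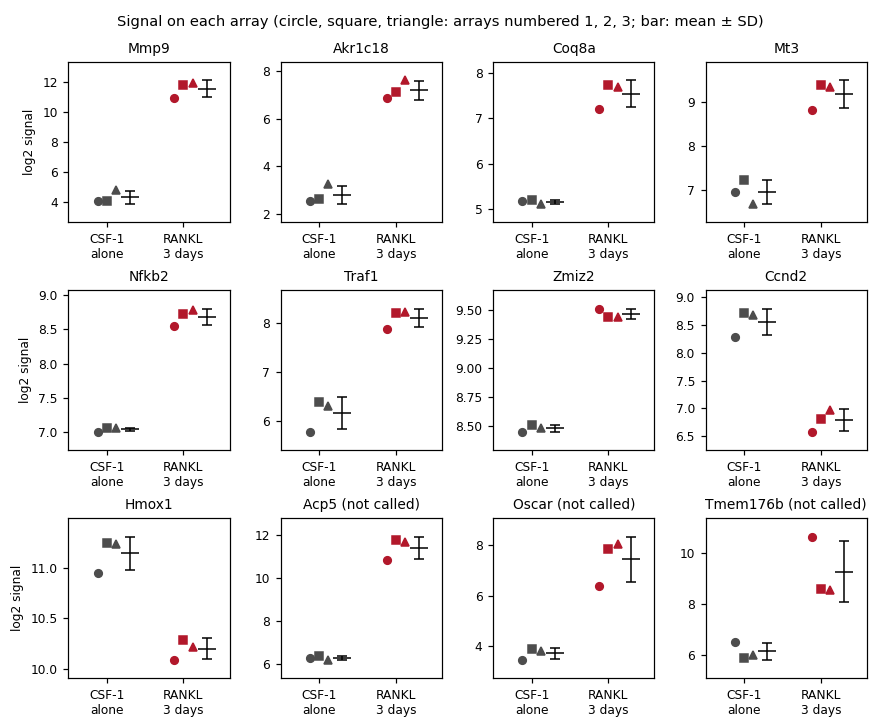
Log2 signal on each of the 6 arrays (y axis, own scale per gene) for 9 called genes and 3 uncalled ones, with the arrays numbered 1, 2 and 3 as circle, square and triangle and the mean ± SD of 3 arrays beside them. The circle of the RANKL group lies below its square and triangle for Mmp9, Acp5 and Oscar and above them for Tmem176b, while the groups do not overlap in any panel.

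Metabolic genes contributed 6 of the rises, all of them also called with the block. Akr1c18, a reductase that inactivates progesterone, read 2.55, 2.62 and 3.24 in MPs and 6.86, 7.12 and 7.62 in OCs. The rise of 4.40 (SE 0.52, adjusted p = 0.0237) started below the lower quartile of the CSF-1 alone arrays (3.36 to 3.38), where signal was not tested against background. Coq8a, a kinase-like protein needed for coenzyme Q synthesis in mitochondria, rose by 2.37 (SE 0.29, adjusted p = 0.0237). Its MP arrays were nearly equal at 5.17, 5.21 and 5.12 and its OC arrays read 7.20, 7.73 and 7.69. Ppargc1b, the coactivator PGC-1 beta that drives mitochondrial biogenesis in OCs, rose by 0.68 (adjusted p = 0.0477). These were the 2 called members among 35 measured genes of mitochondrial biogenesis and energy transfer, of which 31 had a higher mean in OCs, where 46.8% of all genes did. The list median was 0.08, and 4 of the 35 had separate groups, all on the high side, where 6.59% of all genes did. The list mean ran from 8.10 to 8.21 in MPs and read 8.14, 8.43 and 8.45 in OCs, so the groups overlapped. With replicates 2 and 3 alone the median was 0.16.

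The other metabolic rises were in lipid handling. Nr1h3 encodes the oxysterol receptor LXR alpha and rose by 1.24 (SE 0.14, adjusted p = 0.0226), from 7.0, 6.67 and 6.71 to 7.73, 8.13 and 8.25. Pltp, the phospholipid transfer protein, rose by 1.00 (SE 0.10, adjusted p = 0.0202) and was among the brightest of the called genes, with array values of 10.28, 10.27 and 10.34 against 11.42, 11.20 and 11.27. Naaa, a lysosomal hydrolase of lipid amides, rose by 0.93 (adjusted p = 0.0209). The cholesterol exporters Abca1 (0.84, adjusted p = 0.621) and Abcg1 (0.91, adjusted p = 0.269) were called only with the block (0.0194 and 0.0475). Abca1 was high on both arrays numbered 1, at 8.55 against 7.44 and 7.32 in MPs and at 9.49 against 8.14 and 8.19 in OCs. No gene of the 23 measured in sterol and fatty acid synthesis was called.

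Of the remaining large rises, Mt3, a metallothionein that binds zinc and copper, read 6.94, 7.21 and 6.68 in MPs and 8.81, 9.37 and 9.33 in OCs. It rose by 2.23 (SE 0.30, adjusted p = 0.0341). Slc18a1, the transporter that loads monoamines into vesicles, read 4.31, 4.06 and 3.96 against 6.02, 6.22 and 6.59 and rose by 2.17 (SE 0.24, adjusted p = 0.0209). It was the only rise among 36 small molecule transporters, where the betaine transporter Slc6a12 (2.06) and the serotonin transporter Slc6a4 (1.75) had separate groups and adjusted p-values of 0.0578 and 0.092. Vegfc, a growth factor of lymphatic vessels, read 4.91, 4.70 and 4.24 against 6.20, 6.97 and 7.30. The OC arrays spread widely in Vegfc, which rose by 2.21 (SE 0.33, adjusted p = 0.0477) and lost the call with the block (0.0608).

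Ndrg4, of the N-myc downstream regulated family, read 5.49, 5.53 and 5.60 in MPs and 7.30, 7.78 and 8.05 in OCs, a rise of 2.17 (adjusted p = 0.0381). Btbd11, a protein with BTB and ankyrin domains, read 3.53, 3.44 and 3.02 against 4.99, 5.53 and 5.46, a rise of 2.00 (adjusted p = 0.0112). Grk3, a kinase that desensitises G protein-coupled receptors, read 4.91, 4.75 and 4.81 against 6.26, 6.67 and 7.07, a rise of 1.84 (adjusted p = 0.0237). All 3 had tight MP arrays relative to the gap between groups, which was 1.70, 1.46 and 1.35. Smaller rises without a shared role were Enpp4, an enzyme that cleaves extracellular nucleotides, by 1.00, Pde4dip, a centrosome and Golgi scaffold, by 0.80, Parp8 by 0.57, the nucleolar protein Surf6 by 0.54 and 1110008P14Rik by 0.73. Olfr689 rose by 0.96 and read 2.63 to 3.07 in MPs and 3.70 to 3.84 in OCs, close to the lower quartile of each array. It belongs to the large family of odorant receptors, and Gbp7, Serpinb6b, Clec4a1, Akr1c18 and Apobec3 also have close relatives. Cross-hybridisation between relatives was not tested.

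Among the 51 rises, 11 were regulators of small GTPases and the actin cytoskeleton, each also called with the block. Rrad, a Ras-like GTPase that restrains calcium channels, rose most among them. It read 6.00, 6.25 and 6.12 in MPs and 7.47, 7.68 and 7.76 in OCs, a change of 1.51 (SE 0.11, adjusted p = 0.0026). Myo10, the motor of filopodia, rose by 1.18 and was the only called gene of 33 in the podosome and actin ring list, whose median was 0.01. Src, the kinase OCs need to build their resorbing border, changed by 1.74 and missed the threshold in both fits (adjusted p = 0.0797 and 0.0765). Rnd3, which opposes contraction, rose by 1.18, and Rasa4, which switches off Ras, by 0.95.

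Changes in the other 7 genes of the group were modest, between 0.44 and 0.67, and rested on tight arrays. They were the actin-binding tropomyosin Tpm1 (0.67), the kinase Mink1 (0.64), the GTPases Rras and Rala (0.57 each), Cyria, which binds Rac (0.50), the adhesion scaffold Pxn (0.47) and Cdc42ep4, an effector of Cdc42 (0.44). Pxn read 9.20, 9.17 and 9.25 against 9.67, 9.69 and 9.66, so that its arrays differed by at most 0.08 within a group and by at least 0.41 between groups. It was the 1 called gene of 22 integrin and attachment genes. Itgb3, the beta chain of the OC vitronectin receptor, changed by 0.41 and its groups overlapped.

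Nuclear regulators made up 4 of the rises. Zmiz2, a coactivator of the PIAS family, had the second smallest adjusted p of all genes. It read 8.45, 8.51 and 8.48 in MPs and 9.51, 9.44 and 9.44 in OCs, a rise of 0.98 (SE 0.05, adjusted p = 0.000344). Mllt6, a chromatin reader, rose by 0.72, Smad3, which relays TGF-beta signals, by 0.59 and the growth-restraining Btg1 by 0.62, the last without a call in the block fit (adjusted p = 0.0622). The TFs known to drive the OC fate gave smaller or noisier values. Of 21 measured AP-1, NFAT and MYC factors none was called, with Mycl at 1.70, Fos at 1.22, Fosl2 at 0.99 and Nfatc1 at 0.54, and the block called Mycl (adjusted p = 0.0288). Nfatc1, the master TF of OCs, read 7.78, 7.88 and 7.98 against 8.40, 8.43 and 8.43, so its groups were separate although its adjusted p was 0.233. Fos was low on RANKL 3 days replicate 1, at 6.76 against 7.96 and 8.0. Of 22 other lineage factors only Ppargc1b rose, while Prdm1, a repressor of anti-OC genes, changed by 1.47 (adjusted p = 0.158) and Spi1, which encodes PU.1, by 0.34 (adjusted p = 0.0689). Among 24 repressors of the OC fate none was called and the median was 0.00.

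Genes of innate immunity supplied 6 rises of 0.76 to 1.15. Gbp7, an interferon-induced GTPase, read 6.96, 7.22 and 7.17 in MPs and 8.18, 8.19 and 8.43 in OCs and rose by 1.15 (SE 0.12, adjusted p = 0.0202). The lectin receptor Clec4a1 rose by 1.14, the antiviral deaminase Apobec3 by 0.86, the inflammatory caspase Casp4 by 0.77 and the interferon-induced Samd9l by 0.76. Casp4 and Samd9l were not called with the block (adjusted p = 0.0658 and 0.0622). Cd55, which protects cells from complement, rose by 0.82 (SE 0.05, adjusted p = 0.0024) but read 1.92, 2.00 and 1.87 against 2.75, 2.71 and 2.79, below the lower quartile on all 6 arrays. In the list of interferon-stimulated genes all 26 measured members had a higher mean in OCs (46.8% of all genes did), the median change was 0.47 and 14 had separate groups on the high side (6.59% of all genes), while Gbp7 was the 1 gene called. The list mean was lowest on CSF-1 alone replicate 1, and Zbp1 read 6.26, 8.06 and 7.90 in MPs and 8.52, 8.31 and 8.35 in OCs. The list mean ran from 7.54 to 8.34 in MPs and from 8.59 to 8.72 in OCs, and without the arrays numbered 1 the median was 0.25.

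**Figure D4:**
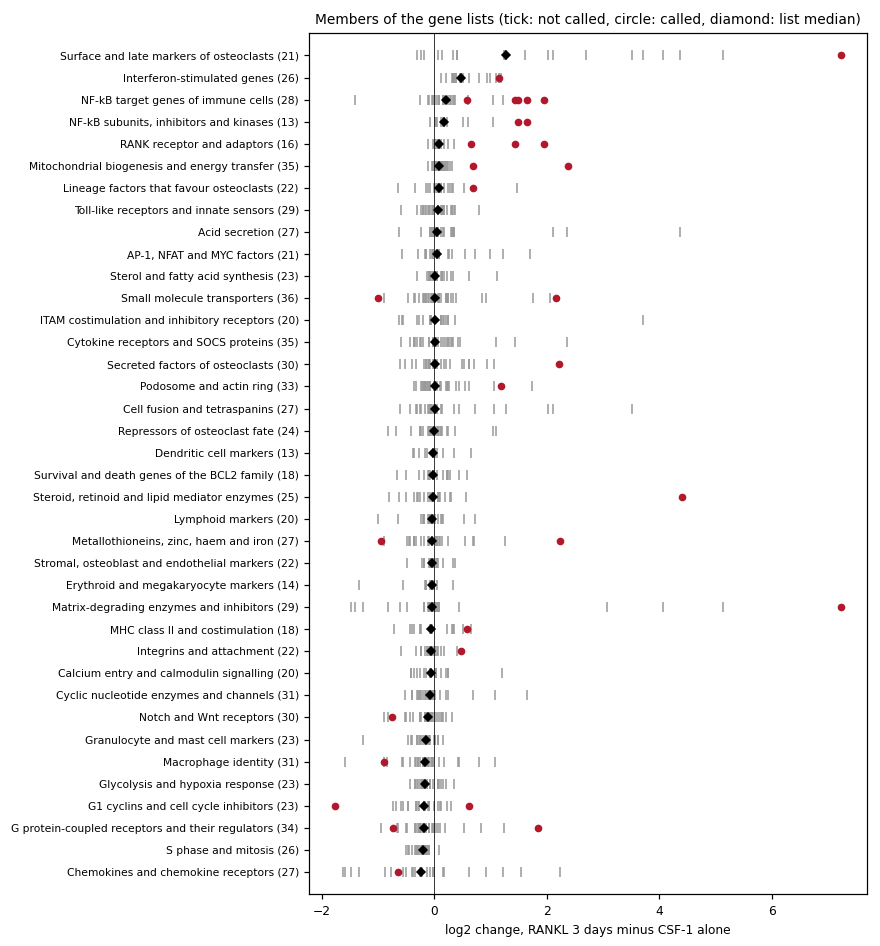
Log2 change of every measured member of 38 gene lists, RANKL 3 days minus CSF-1 alone (x axis), with called genes as red circles, the others as grey ticks and the list median as a black diamond (number measured in parentheses). The median is 1.28 for surface and late OC markers and 0.47 for interferon-stimulated genes, and it lies between -0.24 and 0.21 for the other 36 lists.

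In OCs 8 genes fell, and 3 of them, Hmox1, Cd36 and Notch1, were also called with the block. Ccnd2, a D-type cyclin that moves cells into the cycle, fell most. It read 8.29, 8.72 and 8.67 in MPs and 6.58, 6.81 and 6.98 in OCs, a change of -1.77 (SE 0.25, adjusted p = 0.0404, and 0.0729 with the block). Hmox1, which degrades haem, read 10.95, 11.24 and 11.23 against 10.09, 10.29 and 10.22, a change of -0.94 (SE 0.09, adjusted p = 0.0202). Cd36, a scavenger receptor for oxidised lipids, read 11.35, 11.34 and 11.32 against 10.42, 10.33 and 10.55, a change of -0.90 (SE 0.12, adjusted p = 0.0311). All 3 genes were bright in MPs and remained well above the median gene in OCs. Notch1, a receptor for cell contact signals, read 7.26, 7.50 and 7.43 against 6.56, 6.67 and 6.72, a change of -0.75 (adjusted p = 0.0226). The sphingosine phosphate receptor S1pr1, which guides precursors out of bone, read 8.70, 8.89 and 8.85 against 8.14, 8.02 and 8.07, a change of -0.74 (adjusted p = 0.0404).

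Ccl3, an inflammatory chemokine, was the brightest gene called and read 12.52, 12.58 and 12.55 in MPs and 11.71, 11.98 and 12 in OCs, a change of -0.65 (adjusted p = 0.0477). Nt5dc2, of the 5′-nucleotidase domain family, read 10.74, 10.82 and 10.84 against 10.17, 10.31 and 10.22, a change of -0.57 (adjusted p = 0.0406). The anion transporter Slco2b1 read 4.33, 4.74 and 4.25 against 3.50, 3.48 and 3.34, a change of -1.0 (adjusted p = 0.0311), and its OC values lay near the lower quartile. These 3 genes and S1pr1 had adjusted p-values of 0.0502 to 0.0739 with the block.

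The lists these genes belong to were near even in direction or had mostly lower means in OCs. The G1 cyclins and cell cycle inhibitors, the list of Ccnd2, had 6 members with a higher and 17 with a lower mean. Their median was -0.19, with 1 gene called higher and 1 lower. Small molecule transporters, the list of Slco2b1, had 18 members with a higher and 18 with a lower mean and a median of 0.02. The metallothionein, zinc, haem and iron genes, the list of Hmox1, had 13 higher and 14 lower and a median of -0.04. Of 30 Notch and Wnt receptors and ligands, 22 had a lower mean in OCs, where 51.9% of all genes did, and 7 had separate groups on the low side and 1 on the high side, where 4.91% and 6.59% of all genes did. The median was -0.12, Notch1 was called, and the Notch ligands Jag1 (-0.89) and Jag2 (-0.44) were called only with the block. Of 34 G protein-coupled receptors and their regulators, 26 had a lower mean, 10 had separate groups on the low side and 4 on the high side, and the median was -0.19. The regulators Rgs12 (-0.67) and Rgs1 (-0.65) had adjusted p-values of 0.0865 and 0.088. Chemokines and their receptors had a median of -0.24 over 27 genes, 20 of them lower in the mean, with 6 separate on the low side and 5 on the high side, and ranged from Ccr1 at 2.24 to Ccl7 at -1.62, and Ccr2, the receptor that draws monocytes into tissue, changed by -1.59 (adjusted p = 0.103).

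Of 31 measured macrophage identity genes, 25 had a lower mean in OCs (51.9% of all genes did), 5 had separate groups on the low side (4.91%) and 2 on the high side (6.59%). The median was -0.16, and -0.27 with replicates 2 and 3 alone, and Cd36 was the only one called. The list mean overlapped between the groups, at 8.64, 8.91 and 8.88 in MPs and 8.72, 8.55 and 8.61 in OCs. On the arrays numbered 1 it was higher in OCs. Stab1, a scavenger receptor, changed by -0.84 (adjusted p = 0.088) and the lectin Fcna by 1.07 (adjusted p = 0.0546, and 0.0336 with the block). Both survival genes Bcl2 (-0.67, adjusted p = 0.0558) and Bcl2l1 (-0.51, adjusted p = 0.0928) had every OC array below every MP array, and none of 18 BCL2 family genes was called. The family's median was -0.02, with 3 genes separate on the low side and 4 on the high side. Of 26 genes of S phase and mitosis, 25 had a lower mean in OCs with a median of -0.21, 3 had separate groups on the low side and none on the high side, and none was called. The list mean was 8.51 on 1 RANKL array, replicate 1, and reached 9.41 on another, against 9.24 to 9.35 in MPs, and the median was 0.04 with replicates 2 and 3 alone.

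Many of the largest changes were not called. The 15 largest among uncalled genes with separate groups were all rises, from 2.24 to 5.13, with adjusted p-values of 0.0558 to 0.278. Beside Acp5, Car2, Ctsk, Oscar, Dcstamp, Mmp14 and Slc9b2 they were the actin-severing protein Scin (3.76), the membrane proteins Tmem176b (3.14) and Tmem176a (2.71), the protease inhibitor Spint2 (2.69), the motor Myo1d (2.69), the kinase anchor Akap6 (2.57), the receptor tyrosine kinase Met (2.36) and the chemokine receptor Ccr1 (2.24). Their SEs ran from 0.44 to 0.90, while 2 of the 59 called genes, Mmp9 and Akr1c18, had an SE of 0.40 or more. A large change that misses the threshold must have a large SE, so this contrast follows from how the 15 were picked. In 13 of the 15 the largest SD of the 3 groups was that of the 1.5 days arrays, which share the error estimate. It was so in 6 of the 12 largest called rises and in 4 of the 8 falls. Fitted on the 6 arrays alone, 6 of the 15 were called and 22 of the 59 kept the call. The block called 6 of the 15, a term for replicate 1 against replicates 2 and 3 called 13, and replicates 2 and 3 alone called all 15.

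**Figure D5:**
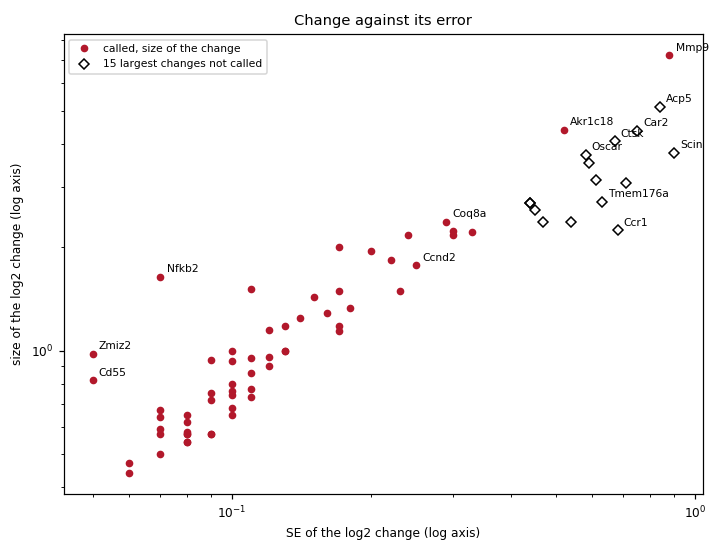
Size of the log2 change (y axis) against its SE (x axis), both on log axes, for the 59 called genes (red) and the 15 largest uncalled changes with separate groups (open diamonds). The uncalled genes have SEs of 0.44 to 0.90, in the range of only Mmp9 and Akr1c18 among the called genes. This follows from picking large changes that missed the threshold.

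The array numbered 1 stood on a different side in different genes. In 11 of the 15 the difference between the 2 arrays numbered 1 was the smallest of the 3 pairs. The same held in 10 of the 12 largest called rises and in 30 of the 59 called genes. Scin was among the 11 and read 2.96, 3.20 and 3.17 in MPs and 5.72, 7.25 and 7.63 in OCs. Tmem176b showed the opposite and read 6.51, 5.89 and 6.00 in MPs and 10.66, 8.61 and 8.55 in OCs, with the highest value of both groups on the array numbered 1. Tmem176a, its neighbour in name and family, read 4.69, 4.29 and 4.51 against 8.74, 6.41 and 6.46. What set these arrays apart is not in the labels.

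Since the 1.5 days arrays share the CSF-1 alone controls, their values are given only side by side. Some called genes had similar changes at both times, such as Nfkb2 (1.75 at 1.5 days and 1.64 at 3 days), Traf1 (2.04 and 1.95), Zmiz2 (1.23 and 0.98) and Ccnd2 (-1.75 and -1.77). Others had the larger value at 3 days, such as Akr1c18 (1.38 and 4.40), Mt3 (0.73 and 2.23), Slc18a1 (0.94 and 2.17) and Smad3 (0.26 and 0.59). The direct comparison of 3 with 1.5 days called none of the 14860 genes by limma. Unadjusted, 771 had a p under 0.05, close to the share that this threshold passes when no gene differs. A difference between the time points was thus not shown for any single gene.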

How the data were processed

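Total RNA was hybridised to Affymetrix Mouse Exon 1.0 ST arrays, 1 per sample. The authors summarised them with Affymetrix Expression Console and RMA, and deposited log2 signals per transcript cluster, which ran from 0.39 to 14.09 on the 9 arrays. For the tool versions and the array annotation build, the sources used here give nothing. RMA normalises the arrays toward one distribution, so a shift of most genes in one direction can be lost. The deposited values still differed: RANKL 3 days replicate 3 had a median of 5.22 over all clusters, against 5.02 to 5.09 on the other arrays. Over the genes tested its median was 5.79, against 5.60 to 5.75. The number of arrays limits the precision. Whether a signal exceeded background was not tested.

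Of 23332 transcript clusters, 14996 had 1 symbol in the platform annotation, 1019 several and 7317 none listed. Symbols were updated by gene ID with RefSeq GRCm38.p6 (14941 matched), and the brightest cluster of each symbol was kept. A mean per group was fitted to all 9 arrays with limma 3.58.1 in R 4.3.3 (lmFit, eBayes, 6 residual and 1.83 prior degrees of freedom), two-sided, with Benjamini-Hochberg adjustment over the 14860 genes, and a gene was called under 0.05. An exact test of 3 against 3 arrays cannot go below 0.1. The test was also run on simulated data with independent noise on each array. That run does not cover deviations shared by arrays of the same number. Lower quartiles are over the genes of an array.

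The limma fit behind the calls had no term for the replicate number. The replicate block, an alternative fit, took the numbers in the labels as pairs. Deviations of same-numbered arrays from their group means correlated at 0.26 to 0.52 over genes in all 9 pairs. Arrays numbered 2 correlated with arrays numbered 3 of other groups at 0.19 to 0.39. Arrays numbered 1 correlated with those numbered 2 or 3 at -0.49 to -0.28. These values set the arrays numbered 1 apart, and do not show that numbers 2 and 3 stand for separate pairs. The labels do not say what a number stands for. Besides the replicate block, the alternatives were a term for replicate 1 against the others, replicates 2 and 3 alone, the 6 arrays alone, each array left out, other scalings, filters on dim genes, other variance models, all clusters, clusters averaged per symbol and the methods' t-test.

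Described in the text were all called genes (the 12 largest rises and all falls by array), the 15 largest uncalled changes with separate groups, list members and cell markers. The comparison, the 38 lists (1020 symbols, 868 measured) and the rules were chosen with earlier results of these data known. Figures were drawn with matplotlib.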

Additional observations from a re-analysis of the deposited data

Results flagged for a closer look

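A signal outside the comparison of named genes appeared when all 23332 transcript clusters were tested together: 4 clusters without a single gene symbol were called between RANKL 3 days and CSF-1 alone (limma, adjusted p of 0.0054 to 0.0416), 3 higher and 1 lower. The cluster 6973561, listed with several symbols, read 7.03, 7.01 and 6.95 in MPs and 8.01, 8.03 and 8.03 in OCs. The unlisted cluster 7018531 read 9.71, 9.58 and 9.60 against 11.11, 10.74 and 10.89. No gene is named for these clusters here.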

How the results depend on the processing

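The count of 59 stayed within 1.5 times under a repeated quantile normalization (70), a trended robust variance (55), array weights (65) and the mean of clusters (59). It was 97 with the replicate block, 215 with a term for replicate 1, 334 with replicates 2 and 3 alone, 31 on the 6 arrays alone, 97 with each array centred on its median (69 higher, 28 lower), 95 without the 4953 dimmest genes, 111 without the 7430 dimmest and 19 over all transcript clusters. The methods' t-test gave 964 genes unadjusted and 0 after adjustment. Leaving out 1 array gave 4 to 102 genes. The cause of these differences was not tested. Replicates 2 and 3 alone, the 6 arrays alone and the filters use fewer arrays or genes. None of the 59 changed direction under the alternatives it was run in, 22 in all, of which the filters on dim genes held 56 and 51 of them. Among the 247 genes of the naming rule and the text, 9 uncalled ones turned. Leaving out 1 array gave -0.11 to 0.02 for Csf1r (0.02 and 0.01 without CSF-1 alone replicates 2 and 3, 0.01 without RANKL 3 days replicate 2), -0.29 to 0.12 for Cd14 (0.03 without CSF-1 alone replicate 1, 0.12 and 0.08 without RANKL 3 days replicates 2 and 3) and -0.32 to 0.07 for Mylip (0.02 and 0.07 without RANKL 3 days replicates 2 and 3). It gave -0.55 to 0.03 for Pfkl, -0.55 to 0.01 for Rrm1 and -0.16 to 1.24 for Slamf8, all turned without RANKL 3 days replicate 1, and -0.28 to 0.00 for Klf1. With replicates 2 and 3 alone, Elovl6 was at 0.20, Bst2 at -0.05 and Rrm1 at 0.01. Of 722 list medians recomputed, 30 moved by more than the spread between arrays.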

Other observations

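Genes called only with the replicate block, 43 higher and 9 lower, included several outside the gene lists, named after their values were seen. The growth factor receptor Fgfr1 read 5.59, 5.61 and 5.74 in MPs and 6.63, 7.32 and 7.36 in OCs (change 1.46, adjusted p = 0.092, and 0.0364 with the block). The sulphate-transferring enzyme Ust changed by 1.88 and was high on the array numbered 1, at 8.28 against 7.30 and 7.62. The chromatin factor Jarid2 changed by 1.12, Ralgds, which activates Ral proteins, by 0.89 and Spic, a relative of PU.1, by 0.95. Among the lower genes were the TF Runx3 (-0.87), which had separate groups, and the calcium pump Atp2b4 (-1.01). Atp2b4 had overlapping groups at 5.15, 6.52 and 6.63 against 4.08, 5.54 and 5.64, since both of its arrays numbered 1 were low.

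Genes known to respond to LXR, a set chosen after Nr1h3 and Pltp were seen among the calls, moved unevenly. Beside Pltp, Abca1 and Abcg1, the change was 0.94 for Ttc39b (adjusted p = 0.167, and 0.0236 with the block), 1.11 for Scd1, 0.28 for Lpcat3, 0.17 for Srebf1, -0.07 for Mylip and -0.29 for Apoe, and none of these 6 was called in the fit without the block. Scd1 read 9.32, 6.77 and 6.67 in MPs and 9.32, 8.30 and 8.47 in OCs, so that its 2 arrays numbered 1 were equal.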
